A study of Homo sapiens with 18 samples.

Results

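RNA sites of the MYC mutants MYC-3A and MYC-7A were compared peak by peak. All 103 peaks of the 3A list and all 88 peaks of the 7A list were used, which are 191 of the 2340 peaks in the 3 deposited lists, and the other 2149 belong to wild-type MYC. A peak was called shared when it overlapped a peak of the other mutant by at least 1 bp on the same chromosome and strand, and particular to its mutant otherwise. The assay was enhanced crosslinking and immunoprecipitation (eCLIP), in which ultraviolet light fixes a protein to RNA in living cells and the RNA recovered with that protein is sequenced. They were U2OS cells, from a human osteosarcoma, without endogenous MYC and with FLAG-tagged MYC-3A, MYC-7A or MYC-WT switched on by doxycycline. Each group used here had 2 immunoprecipitated libraries and 1 input library, from cells given 1 µg/mL doxycycline for 24 h. All groups therefore share the MYC knockout, the inducible transgene and the doxycycline, and neither the residues that 3A and 7A replace nor the clonality of the lines is given in the labels. There was 1 list per mutant and none from cells without doxycycline was analysed here, so no difference between the mutants could be set against a spread between replicates, and no test was made. Depth is unknown, and a deeper or cleaner library gives more peaks. Intervals are exact 95% binomial intervals that cover counting error over peaks only, and neighbouring peaks in a gene are not independent. The share that a count of 0 allows is instead 3 counts over the number of peaks considered.

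MYC is a DNA-binding regulator with a basic region, a helix-loop-helix and a leucine zipper. It pairs with MAX on E-box sequences and is known for raising genes of ribosomes, metabolism and growth. In eCLIP a peak marks a stretch of RNA recovered with the tagged protein above a control. Peaks at the start of a long gene lie near the first bases of its transcripts, whereas peaks deeper in it can lie in introns or exons. In a short gene a summit within 500 bp of the start can lie anywhere in the gene. The annotation used here gave gene spans without exons, so introns and exons could not be told apart. The host of a peak is the shortest annotated gene that holds its summit. The fold enrichment and −log10 q of each peak are the authors' values and were used only to rank peaks within a list.

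The 3 sites below are shown because each stands for one kind of result: a site shared by both mutants, the strongest 3A site by −log10 q, and the only summit whose host was a microRNA gene. Sequences are from RefSeq on GRCh38.p14, the assembly of hg38, written 5′ to 3′. The first is the stretch just upstream of PGK1, chrX:78103998-78104247 on the plus strand, which lies inside the shared peak of both mutants. It has 71.2% G and C, and it holds no CACGTG, the E-box, so no letters are in capitals. The second is the 3A peak at chr12:57754989-57755094 on the minus strand, with the 11 bases around its summit in capitals. The third is the hairpin of MIR4449, chr4:52712682-52712747 on the plus strand, with the mature microRNA in capitals, followed by the mature microRNA with its seed (bases 2 to 8) in capitals.
PGK1 upstream: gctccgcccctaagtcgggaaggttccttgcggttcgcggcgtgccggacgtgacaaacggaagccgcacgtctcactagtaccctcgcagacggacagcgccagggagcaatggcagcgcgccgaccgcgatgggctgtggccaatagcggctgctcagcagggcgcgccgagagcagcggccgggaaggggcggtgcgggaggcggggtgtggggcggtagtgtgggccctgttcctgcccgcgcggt
MARCHF9 opposite strand: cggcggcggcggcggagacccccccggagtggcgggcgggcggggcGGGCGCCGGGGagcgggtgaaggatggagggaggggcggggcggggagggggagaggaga
MIR4449 hairpin: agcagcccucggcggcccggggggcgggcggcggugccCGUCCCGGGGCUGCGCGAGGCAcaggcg
hsa-miR-4449: cGUCCCGGggcugcgcgaggca

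A minority of the sites were common to both mutants, and the remaining sites of 3A and of 7A were of different kinds. Of the 103 3A peaks, 33 were shared (32.0%, interval 23.2 to 42.0), and of the 88 7A peaks, 32 were shared (36.4%, interval 26.4 to 47.3). The counts differ because 1 7A peak in CFL1 met 2 3A peaks. The peaks particular to 3A lay mostly on wild-type sites, near gene starts or in genes of glycolysis, translation and chromatin such as ENO1, RPL8 and the histone genes. The peaks particular to 7A lay mostly off wild-type sites and away from gene starts, as in KIRREL3, GAS6 and LOC124900480. Of the 70 peaks particular to 3A, 59 lay on a wild-type peak (84.3%, interval 73.6 to 91.9), and of the 56 particular to 7A, 9 did (16.1%, interval 7.62 to 28.3). Shared peaks lay between these, with 22 of 33 3A peaks (66.7%, interval 48.2 to 82.0) and 21 of 32 7A peaks (65.6%, interval 46.8 to 81.4) on a wild-type peak. Over the whole lists, 81 of 103 3A peaks (78.6%) and 30 of 88 7A peaks (34.1%) lay on a wild-type peak. Setting the shared peaks aside therefore widened the difference between the lists. Among peaks particular to 7A the share depended on the peaks kept: in the upper part of the list by fold enrichment, 1 of 28 (3.57%) lay on a wild-type peak.

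**Figure D1:**
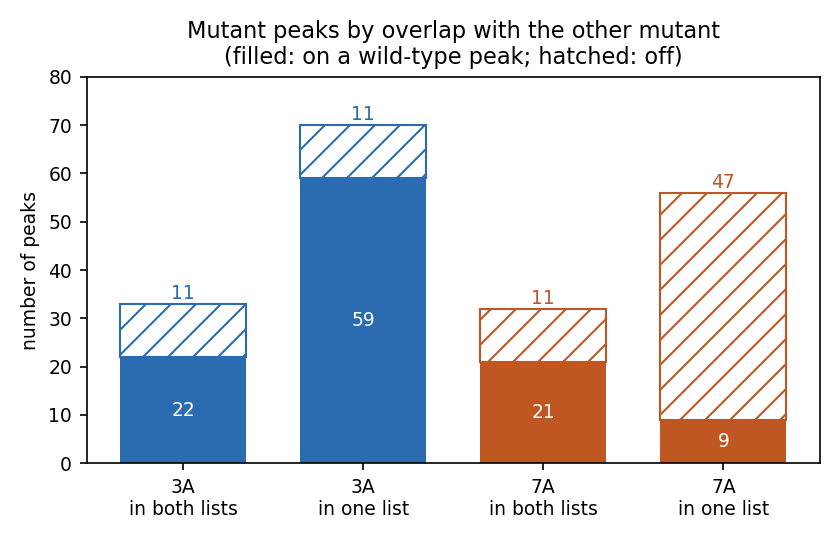
Number of peaks in each mutant list (vertical axis), split by whether the other mutant had an overlapping peak. Filled bars are peaks on a wild-type peak and hatched bars are peaks off wild-type peaks. The peaks in one list only divide 59 to 11 for 3A and 9 to 47 for 7A.

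The overlaps were clear ones. The smallest was 100 bp, in peaks that were themselves 100 bp wide, and the smallest share of the shorter peak was 51.5%, in CFL1. Summits of the 33 overlapping pairs lay a median of 15 bp apart, and 26 pairs had summits at most 50 bp apart. Just outside the rule, the nearest particular peak was a 3A peak in ACTB, the beta-actin gene, 482 bp from a 7A peak. It was followed by a 7A peak in AUTS2 at 508 bp and a 3A peak in MT2A at 606 bp. In 4 pairs both ends were identical. They were a peak of 102 bp at chr1:6261628-6261729 near GPR153, one of 100 bp at chr12:130315532-130315631, one of 100 bp in HRK and one of 112 bp in MTRNR2L1. The first 2 of these had the same ends in the wild-type list as well.

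Among the shared sites, the MYC gene came first in both lists. The 3A peaks there, at chr8:127738268-127739060 and chr8:127740408-127741001, had fold enrichments of 53.2 and 52.2 and were ranked 1 and 2 of 103. The 7A peaks, at chr8:127738278-127739049 and chr8:127740420-127740997, had 39.8 and 23.3 and were ranked 1 and 7 of 88. Since a MYC transgene was induced, reads at this locus cannot be told apart from RNA of the transgene. PGK1, the phosphoglycerate kinase gene of glycolysis, had a shared peak over its start with a fold enrichment of 17.9 in 3A (rank 8) and 7.40 in 7A (rank 59). Relative to the RefSeq start, the 3A peak began at position -420 and the 7A peak at -411, and both covered all 300 bases of the RefSeq window that holds the sequence printed above. In the wild-type list the overlapping peak was ranked 3 by fold enrichment (331), behind the 2 MYC peaks. The wild-type summit lay outside the annotated PGK1 gene, whereas the mutant summits lay 14 bp (3A) and 20 bp (7A) from its start, inside it. The source of the RNA upstream of the annotated PGK1 start was not tested, so this peak need not come from PGK1 transcripts. Without the MYC and PGK1 peaks, 30 of 100 3A peaks and 29 of 85 7A peaks (34.1%) were shared.

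Another group of shared peaks lay in CFL1, EEF2, ACTB, histone genes and some others, all on wild-type peaks. In CFL1, the gene of the actin-severing protein cofilin, 3A had peaks of 151 and 200 bp with fold enrichments of 2.96 and 2.38. The 7A list had a single CFL1 peak of 313 bp with 3.62 that met both of them. In EEF2, the translation elongation factor gene, the fold enrichment was 4.79 in 3A (rank 62) and 3.46 in 7A (rank 78). ACTB had 3.86 (rank 77) and 2.72 (rank 85), with the same summit in both lists. The shared histone peaks were in the linker histone gene H1-4 and the core histone genes H2AC6 and H4C5. All 3 were narrower in 7A: 569 against 154 bp in H1-4, 409 against 199 bp in H4C5 and 293 against 208 bp in H2AC6. PHB2 (prohibitin), CALM2 (calmodulin), MT2A (a metallothionein), ZNF316 (a zinc finger protein) and SCARNA28 (a small Cajal body RNA) completed this group. Of these PHB2 had the highest 3A rank by fold enrichment, 20 with 11.8, against rank 52 with 8.45 in 7A.

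MTRNR2L1, a nuclear gene that resembles mitochondrial ribosomal RNA, ranked 1 in the 7A list by −log10 q, at 778, with a fold enrichment of 19.8 (rank 11). In the 3A list it had a −log10 q of 237 (rank 4) and a fold enrichment of 3.92 (rank 76). The peak had the same ends in both lists. Placement of mitochondrial reads at this copy was not tested.

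Wide shared peaks lay in other genes and between genes. TOM1, whose product is an adaptor of endosomal sorting, had a pair of shared peaks on chromosome 22 that covered much more in 7A: 2872 against 450 bp, and 2637 against 759 bp. Their summits nonetheless lay 3 and 17 bp apart. By fold enrichment the wider TOM1 peak was ranked 2 in 7A (30.02) and 21 in 3A (11.7). A pair of peaks between genes on chromosome 2, near LOC105373411, measured 1527 and 1211 bp in 7A and 491 and 486 bp in 3A. The order was the other way in TBC1D22A, which encodes a protein with a Rab GTPase-activating domain, where a 3A peak of 1942 bp met a 7A peak of 1145 bp. In AUTS2, a gene tied to brain development, a 3A peak of 802 bp met a 7A peak of 404 bp. The same kind of site was found in DCLK2, a kinase gene of the doublecortin family, and in PIAS4, a SUMO ligase gene. Over all 33 pairs, 7A was wider in 11, 3A in 18, and 4 were equal, so the wide 7A peaks were a few sites and not a shift of all.

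**Figure D2:**
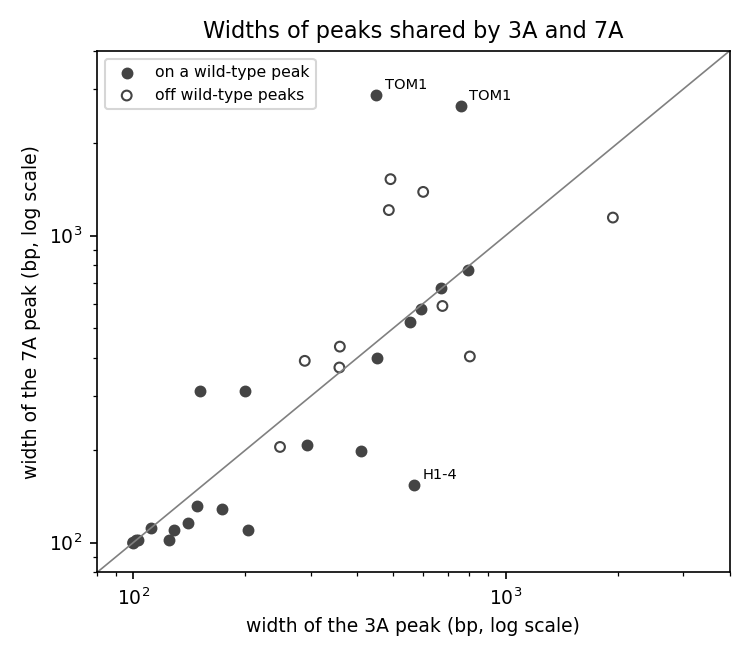
Width of the 7A peak (vertical axis) against that of the 3A peak it overlaps (horizontal axis), both in bp on log scales, for 33 pairs. The line marks equal widths. Genes whose widths differ by more than a factor of 3 are named, and the TOM1 points stand highest above the line.

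Off wild-type peaks there were 11 shared pairs. They included the 2 in TBC1D22A, the 2 in AUTS2, the 2 on chromosome 2, 1 at chr9:41229415-41230091, and 1 each in IGF2, ANXA2 and HRK. IGF2 encodes a growth factor, ANXA2 a calcium-dependent membrane-binding protein and HRK an activator of cell death. The median width of the 11 pairs was 486 bp in 3A and 435 bp in 7A, against 202 and 176.5 bp for the 22 pairs on wild-type peaks. The 8 of them in a gene had hosts with a median length of 328124 bp, and none of their summits lay within 500 bp of the host start, which for 8 peaks allows a share of up to 37.5%. At gene level 25 genes hosted peaks of both mutants, 32.9% of the 76 3A hosts and 41.0% of the 61 7A hosts. For scale, a 3A summit lay in 0.127% and a 7A summit in 0.102% of 59778 annotated genes. The 5 of these 25 genes that had no wild-type summit were ANXA2, AUTS2, HRK, IGF2 and TBC1D22A, where 2.39% of all genes had one.

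In 2 of the 25 genes the mutants had peaks at different places. In PFN1, the gene of the actin-binding protein profilin, the 3A summit lay 96 bp from the start and the 7A summit 2743 bp from it, in a gene of 2879 bp. In PKM, the pyruvate kinase gene of glycolysis, the 3A summits lay 31064 and 32067 bp from the start, at the far end of a gene of 32563 bp, and the 7A summit lay at 12609 bp. All of these PFN1 and PKM peaks overlapped wild-type peaks.

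Peaks particular to 3A gathered at gene starts. Of the 69 in a gene, 40 had the summit within 500 bp of the host start (58.0%, interval 45.5 to 69.8), against 2 of 50 for 7A (4%, interval 0.488 to 13.7). Shared peaks had 6 of 28 in 3A (21.4%) and 6 of 27 in 7A (22.2%), and the wild-type list had 959 of 2121 (45.2%). The median distance from the start was 331 bp for peaks particular to 3A and 21609.5 bp for those particular to 7A. Short genes put any summit near a start, and the host genes did differ in length, with medians of 6662 bp for 3A and 43528 bp for 7A. In hosts of at least 5 kb the shares were 18 of 39 (46.2%) for peaks particular to 3A, 1 of 46 (2.17%) for those particular to 7A and 2 of 19 (10.5%) for shared peaks of either list. Host lengths were not matched, and the part of gene length in the difference was not tested. In protein-coding hosts of that size, the opening 5th of the gene held 19 of 37 3A summits (51.4%) and the closing 5th held 10. Of 36 7A summits the opening 5th held 4 (11.1%) and the closing 5th held 14 (38.9%).

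**Figure D3:**
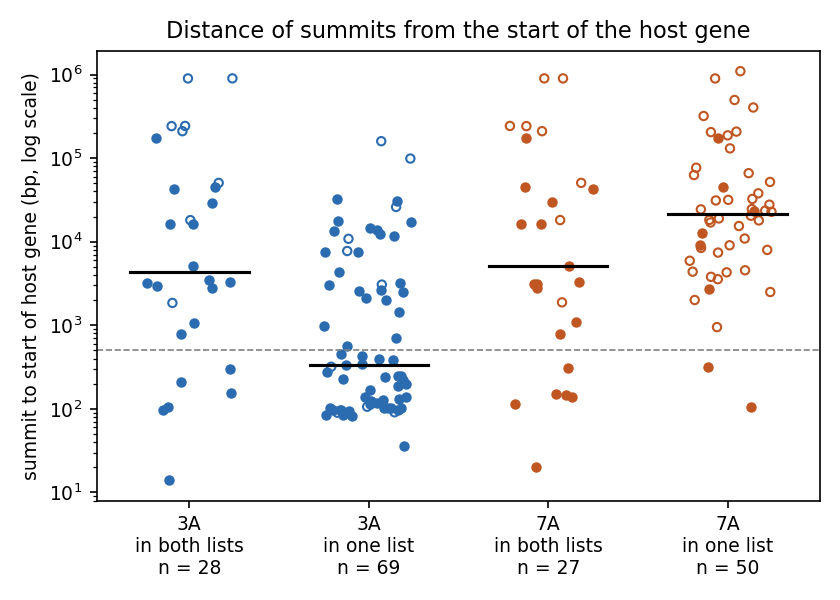
Distance from the summit to the start of the host gene in bp on a log scale (vertical axis), for peaks that lie in a gene. Filled points are on wild-type peaks, open points are off them, black lines are medians and the dashed line marks 500 bp. Points of 3A found in one list only crowd near 100 bp, and the open points of 7A found in one list only all lie above the dashed line.

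By fold enrichment the peaks particular to 3A were led by NDUFB8, a subunit of respiratory complex I, with 25.3 (rank 5 of 103) and a summit 137 bp from the start. AP2M1, a component of the clathrin adaptor AP-2, had 18.7 (rank 7) at 106 bp. LDHB, a lactate dehydrogenase subunit, had 14.7 (rank 11) with the summit deep in the gene, at 13854 bp. PTMA, the gene of the acidic nuclear protein prothymosin alpha, had 13.8 (rank 12) at 94 bp, and PPA1, a pyrophosphatase gene, had 13.6 (rank 14) at 123 bp. Next were CYKILR, a long non-coding RNA gene (13.5), ENO1 (12.6) and the galectin gene LGALS1 (12.5, summit at 90 bp). The spliceosomal helicase gene SNRNP200 had 9.87 at 103 bp and the ribosomal protein gene RPS20 had 8.74 at 97 bp. The first base of the 3A peak lay 15 bases into NDUFB8, 17 into BTF3, 24 into SNRNP200 and 29 into TCP1 and SRSF1, counted from 1 at the RefSeq start. BTF3 is a subunit of the complex that meets nascent polypeptides, TCP1 a chaperonin subunit and SRSF1 a splicing factor. These peaks began just inside the transcript and not upstream, unlike the peak at PGK1.

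RefSeq windows of 300 bases around the start were at hand for 24 of the 38 genes with a start peak particular to 3A. The E-box CACGTG, searched on both strands (it reads the same on each), was present in 1 of the 24 (4.17%), HNRNPD, and in 7.43% of 27305 windows of all genes. TATAAA, the core of the TATA box, was present in 8 of the 24 on either strand (33.3%), 6 of them histone genes, against 11.95% of all windows.

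ENO1, the enolase gene of glycolysis, showed the contrast most plainly with 6 peaks in 3A and 0 in 7A. They ran over 6204 bp of the gene, and their fold enrichments were between 3.50 and 12.6. All of them lay on wild-type peaks. RPL8, a large-subunit ribosomal protein gene, had 4 peaks in 3A and 0 in 7A, with fold enrichments from 4.03 to 11.5. HSP90AB1, a chaperone gene, had 2, and the peak near its end had a fold enrichment of 8.40 and was ranked 7 by −log10 q (146). ACTG1, the gamma-actin gene, also had 2 in 3A and 0 in 7A.

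The 11 peaks particular to 3A that met no wild-type peak were narrow, from 100 to 157 bp. They lay in AP2M1, ATP5F1B, CYKILR, GJD3-AS1, LGALS1, MT2A, MYH9, PALM, PRMT2 and RUNX1, and beside MARCHF9. The peak beside MARCHF9 ranked 1 in 3A by −log10 q, at 1381, though its fold enrichment of 11.1 was ranked 25. It lay on the strand opposite to MARCHF9, entirely within the window upstream of that gene, from 114 bases before the start, and its sequence printed above has 84.0% G and C. The MIR4449 peak, chr4:52712694-52712812, lay on a wild-type peak and was particular to 3A. It covered all 22 bases of the mature microRNA and 54 of the 66 bases of the hairpin, and extended beyond it into DANCR, the long non-coding RNA gene that surrounds MIR4449. Its −log10 q was 137 (rank 8) and its fold enrichment 3.20 (rank 86). RMRP, the RNA of ribonuclease MRP, likewise had a high −log10 q (167, rank 6) at the lowest fold enrichment of the list, 1.35.

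Peaks particular to 7A were led by LOC124900480, a long non-coding RNA gene on chromosome 22 that lies inside TAFA5. Its peaks, at chr22:48581150-48582224 and chr22:48585522-48587759, had fold enrichments of 24.5 and 23.5 and were ranked 4 and 5 of 88. PIAS4 had a peak of 1357 bp (19.3, rank 12) 840 bp away from the shared 3A peak. RILPL1, which encodes a binder of phosphorylated Rab proteins, had 17.96 (rank 15) on a wild-type peak. KIRREL3, an adhesion molecule of the immunoglobulin superfamily, had 16.97 (rank 16) and PXDN, the peroxidase of the extracellular matrix, had 16.1 (rank 19). GAS6, a ligand of the TAM receptor kinases, had peaks of 2441 and 682 bp with 14.9 and 14.1. LINC00898, a long non-coding RNA gene, had 2 peaks with 14.7 and 14.1, and PEPD, a dipeptidase gene, had 13.9. PODNL1, a proteoglycan-like gene, had 3 peaks within 1678 bp, with 12.9, 12.6 and 8.83. All of these except this RILPL1 peak met no wild-type peak.

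Of the 47 peaks particular to 7A and off wild-type sites, 42 lay in a gene and none had its summit within 500 bp of the host start, which allows a share of up to 7.14%. Their hosts had a median length of 45228 bp. Hosts longer than 100 kb held 15 of the 50 peaks particular to 7A in a gene (30%, interval 17.9 to 44.6) and 2 of 69 for 3A (2.90%, interval 0.353 to 10.1). They also held 6 of 28 shared 3A peaks (21.4%) and 6 of 27 shared 7A peaks (22.2%), so such hosts were not particular to 7A. The long hosts of 7A included NTM, a neuronal adhesion gene of 966208 bp, NALF1, GSE1 and TBCD, a tubulin-folding cofactor. Long non-coding RNA genes held 9 of the 56 peaks particular to 7A (16.1%, interval 7.62 to 28.3) and 3 of 70 for 3A (4.29%, interval 0.893 to 12.02), beside 3.82% of wild-type peaks. These shares depend on taking the shortest gene as host. With protein-coding genes taken first, protein-coding hosts held 41 in place of 38 of the 56 and 63 in place of 61 of the 70. Chromosome 22 held 9 of the 56 (16.1%) and 2 of the 70 (2.86%), beside 4 of 33 shared 3A peaks (12.1%), 4 of 32 shared 7A peaks (12.5%) and 4.37% of wild-type peaks. Of the 9, 4 were the peaks in LOC124900480 and LINC00898. Peaks wider than 400 bp numbered 13 of 56 (23.2%) for 7A and 2 of 70 (2.86%) for 3A, and those 2 lay in the histone genes H1-2 and H2BC4. Such wide peaks were more frequent among shared peaks, with 15 of 33 in 3A (45.5%) and 13 of 32 in 7A (40.6%).

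**Figure D4:**
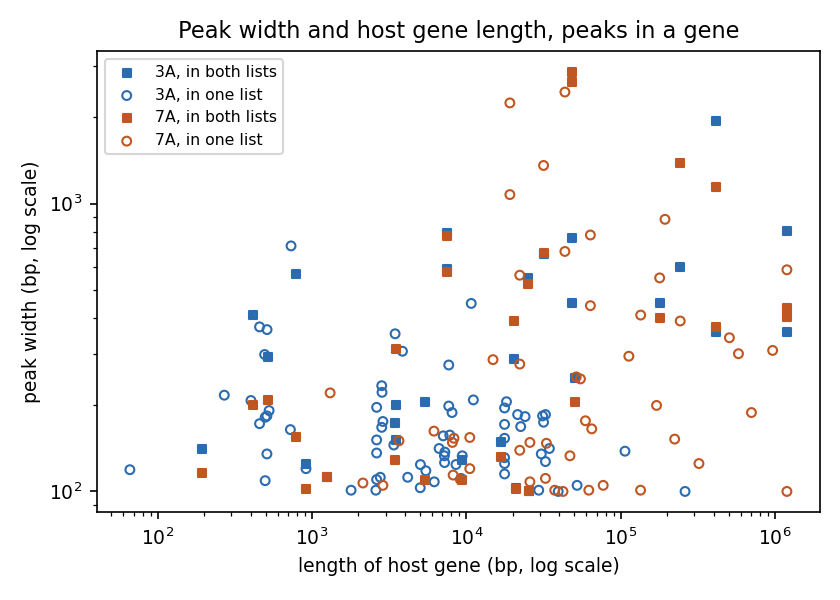
Peak width (vertical axis) against length of the host gene (horizontal axis), in bp on log scales, for peaks in a gene. Filled squares are in both lists and open circles in one list only. Open circles of 3A lie mostly below 400 bp and in hosts shorter than 100 kb, and 7A peaks above 1000 bp lie in hosts of at least 19150 bp.

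The 9 peaks particular to 7A that did lie on wild-type sites had a median width of 111 bp, against 198 bp for the 47 off them. Wider than 400 bp were 3 of the 9 and 10 of the 47. The 9 lay in PKM, PFN1, SNRPB (a core protein of the spliceosomal snRNPs), DCLK2, RILPL1, LOC102724250 and COXFA4, in TRMT112, and outside genes on chromosome 21. The summit in COXFA4, whose product belongs to the mitochondrial respiratory chain, lay 105 bp from the start and was 1 of the 2 near a start. The TRMT112 peak lay on the opposite strand to that gene and began 12 bases before the start of PRDX5, a peroxiredoxin gene on its own strand. Host strands were known for 69 3A peaks and 55 7A peaks. Of these, 2 of the former, in RUNX1 and PRMT2, and 3 of the latter, in TRMT112, DHX37 and AUTS2, lay opposite to the host. One 7A peak counted in TALAM1, an antisense RNA gene, lay on the plus strand, which is that of the overlapping MALAT1.

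Ranks within the lists set the shared and particular peaks apart to a different degree by each measure. Among the 10 peaks of highest fold enrichment, 8 were shared in 3A and 8 in 7A. Among the 10 of highest −log10 q, 5 were shared in 3A and 8 in 7A. In the 3A list the median rank, of 103, was 31 for shared and 57.5 for particular peaks by fold enrichment, and 40 and 60.5 by −log10 q. In the 7A list the median rank, of 88, was 21.5 for shared and 54 for particular peaks by −log10 q. By fold enrichment it was 47 and 44.5, so shared 7A peaks did not stand higher by that measure. The wild-type peaks that the mutants met were also ranked within their own list. Of the 55 met by peaks particular to 3A, 28 stood in the top 100 of the wild-type list by −log10 q, as did 9 of the 21 met by shared peaks and 1 of the 9 met by peaks particular to 7A.

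In protein-coding genes as a whole, 0.329% hosted a 3A summit, 0.244% a 7A summit and 6.02% a wild-type summit. Of 66 replication-dependent histone genes, 13 had a 3A peak and 3 a 7A peak, and these 3, H1-4, H2AC6 and H4C5, were the shared ones above. Of 20 glycolysis genes, 5 had a 3A peak (ENO1, GAPDH, LDHB, PGK1 and PKM) and 2 a 7A peak (PGK1 and PKM). The PGK1 peak extends upstream over the whole start window, as given above, and without it the counts were 4 and 1. Of 79 cytosolic ribosomal protein genes, 5 had a 3A peak (RPL8, RPL27A, RPLP1, RPS2 and RPS20), 0 a 7A peak and 58 a wild-type peak. The 0 of 88 7A peaks allows a share of up to 3.41% of peaks. Of 21 chaperone genes, HSP90AB1 and TCP1 had a 3A peak and 0 had a 7A peak. Of 36 translation factor genes, 2 had a 3A peak (EEF2 and EIF5A) and 1 a 7A peak (EEF2). Of 22 cytoskeleton genes, 5 had a 3A peak (ACTB, ACTG1, CFL1, MYH9 and PFN1) and 3 of these a 7A peak (ACTB, CFL1 and PFN1). Counts were the other way for matrix and adhesion genes: of 40, LGALS1 had a 3A peak, and KIRREL3, PXDN and SPARC had a 7A peak, the latter with 2 peaks of fold enrichment 5.63 and 4.10. All gene lists were chosen with earlier results of these data known, so these counts only describe the lists. NTM, an adhesion gene with a 7A peak, was not in this list. Of 30 abundant non-coding RNAs, RMRP and SCARNA28 hosted a 3A summit and SCARNA28 hosted a 7A summit. The 7A peak that overlapped MALAT1, also in this list, was assigned to TALAM1. Of 20 nuclear copies of mitochondrial genes, MTRNR2L1 had a summit of each mutant. Of 17 markers of other tissues, 0 had a peak of either mutant. At the shares of all protein-coding genes given above, 0 is the likely count in a list of this size, so it says little about these genes. The same holds for the 0 of 7A in the chaperone and ribosomal protein lists. Of 6 bone-lineage genes, SPARC, whose product is the matrix protein osteonectin, had a 7A peak and 0 had a 3A peak. RNA levels were not examined here, as no values of the input libraries were analysed. A gene without a peak may therefore also have had little RNA.

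**Figure D5:**
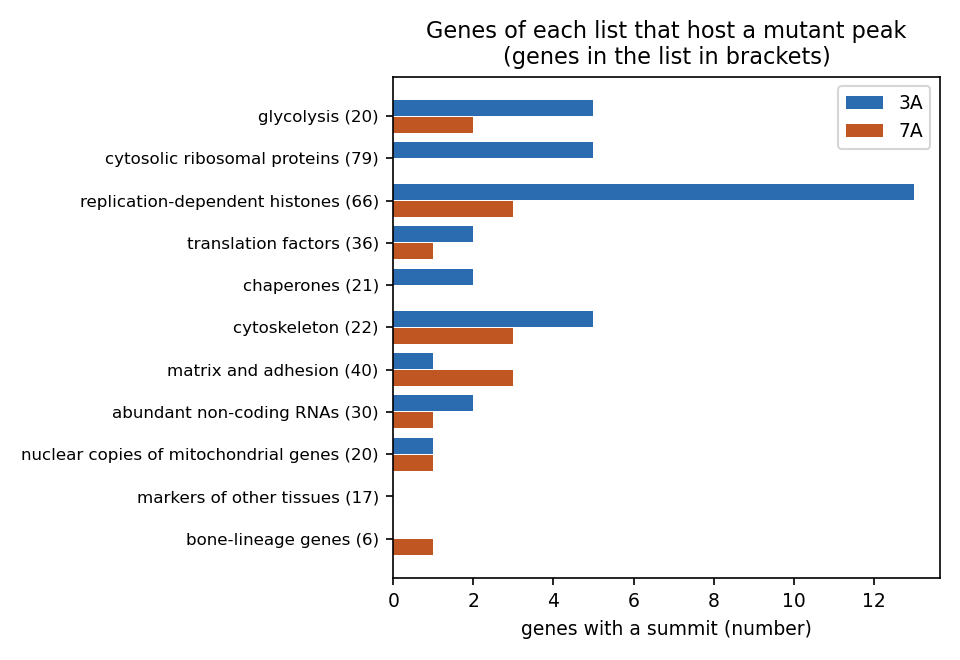
Number of genes of each list that host a summit (horizontal axis), for 3A and 7A, with the number of genes in the list in brackets. Bars of 3A are longer for histones (13 against 3), ribosomal proteins (5 against 0) and glycolysis (5 against 2), and the 7A bar is longer for matrix and adhesion genes (3 against 1). The lists were chosen with earlier results of these data known.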

How the data were processed

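The authors deposited 1 peak list in narrowPeak layout per allele. The tools named, per the submitters' processing notes, are BWA, cutadapt and MACS2, and the build is hg38. Their settings, the control and any pooling of replicates are not stated in those notes. Each deposited peak has a fold enrichment (a ratio to that control), a −log10 q, an integer score that was not used, and a summit offset. Depth per sample is unknown.

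Positions were made 1-based. Hosts came from the RefSeq gene table of GRCh38.p14, and gene strand from the RefSeq start windows where given (27305 genes), otherwise from the peak. Some genes are not reported here. Overlaps were tested on simulated lists and checked against bedtools. The members and gene lists were chosen with earlier results of these data known. Genes named were hosts of shared peaks, of the 15 particular peaks per mutant with the highest fold enrichment or −log10 q, of 3 or more peaks, list members and genes with a peak in a start window. GSE1, NALF1, NTM, TBCD and the genes of the off-wild-type 3A, on-wild-type 7A and opposite-strand peaks, and nearest or overlapping genes, were named after their values were seen. No test was made, as 1 list per mutant gives no replicate spread. The alternatives were other overlap, threshold, joining and host rules. Histone genes and pseudogenes resemble one another, so some reads may be assigned to a sister copy. Computation used SciPy 1.17.1, NumPy 2.4.6 and pandas 2.3.3 under Python 3.11.15.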

Additional observations from a re-analysis of the deposited data

How the results depend on the processing

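Of 116 alternative values of 43 results, 113 stayed within the exact 95% interval of the value reported or, for counts, within 1.5 times of it. The share of peaks shared by both mutants ranged from 28.8% to 34.1% in 3A and from 33.7% to 38.03% in 7A. With the lower part of the lists by fold enrichment left out, the share of particular 7A peaks on wild-type peaks was 3.57% in place of 16.1%. With every gene that holds any base of a peak counted, 2 genes of the abundant non-coding RNAs had a 7A peak in place of 1. MALAT1 was then counted, whereas the shortest-gene rule had given its peak to TALAM1. By −log10 q in place of fold enrichment, 5 in place of 8 of the 10 highest 3A peaks were shared. Joining peaks within 5 kb, leaving out MYC and PGK1, leaving out hosts of known opposite strand and ranking by −log10 q were chosen after seeing the data. No paired analysis was possible because the lists hold no replicate values, which also kept replicates from being left out.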

Other observations

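Peaks particular to 7A lay more often in the outer parts of chromosomes, a measure chosen after its values were seen and given without a test. Within 5 Mb of the outermost annotated gene of a chromosome lay 23 of the 56 peaks particular to 7A (41.1%, exact 95% interval 28.1 to 55.0). The number was 13 of 70 for 3A (18.6%, interval 10.3 to 29.7), 6 of 32 for shared 7A peaks (18.8%) and 373 of 2149 for wild type (17.4%). Within 2 Mb the shares were 16.1% for 7A, 12.9% for 3A and 8.52% for wild type. Of the peaks particular to 3A, 24 of 70 lay on the plus strand (34.3%, interval 23.3 to 46.6). For peaks particular to 7A the count was 27 of 56 (48.2%, interval 34.7 to 62.0). Several peaks in 1 gene are not independent. On the minus strand ENO1 held 6 of the 3A peaks and RPL8 held 4, and on the plus strand HSP90AB1 held 2. Peaks particular to 3A lay on chromosome 6, which holds the main histone gene cluster, in 13 of 70 cases (18.6%), and 0 of 56 particular to 7A did, which allows a share of up to 5.36%.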
